A study of Rattus norvegicus with 6 samples.

Results

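miR-448 and miR-1298, which lie inside the serotonin receptor gene Htr2c, were compared with miR-204 and miR-211, which lie inside the channel genes Trpm3 and Trpm1, in the lumbar spinal cord of rats with bone cancer pain (BCP). Every listed mature miRNA named miR-448, miR-1298, miR-204 or miR-211, with any arm suffix or none, was taken, which gave 7 of the 753 known miRNAs in the count table (rno-miR-448-5p, rno-miR-448-3p, rno-miR-1298, rno-miR-204-5p, rno-miR-204-3p, rno-miR-211-5p and rno-miR-211-3p). Htr2c hosted 3 of them and the Trpm genes hosted 4. The 3 BCP rats received living Walker 256 carcinoma cells, a rat mammary tumor line, in the marrow cavity of the left tibia, and the 3 sham-operated rats received heat-killed cells in the same way. Tissue was taken on day 14, with 1 library per rat. The labels give the strain as Wistar, whereas the paper gives female Sprague Dawley rats. No untouched rats were included, so both groups carried the bone injury and the injected cell material, and the age of the rats is not given in the sources used here. The tissue was the lumbar cord, according to the labels from the injected side and without meninges.

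Htr2c encodes a G-protein-coupled serotonin receptor that is strongly expressed in the choroid plexus and in some neurons of the brain and spinal cord. Its introns carry a row of miRNA hairpins. Trpm3 encodes a heat- and steroid-sensitive cation channel and Trpm1 a channel of retinal bipolar cells and melanocytes. miR-204 and miR-211, in introns of these genes, are paralogs and are well known from the retinal pigment epithelium, the choroid plexus and melanocytes. A miRNA pairs with its targets mainly through its seed, bases 2 to 8 from the 5′ end.

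All 7 members were found in RefSeq's miRNA records for the rat assembly GRCr8, which is not the assembly used by the authors for mapping (Rnor_6.0). The sequences show which members can share targets or reads, and capitals mark the seed.
miR-448-5p: aACAUCCUgcauagugcugcca
miR-448-3p: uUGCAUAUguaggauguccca
miR-1298: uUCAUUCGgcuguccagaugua
miR-204-5p: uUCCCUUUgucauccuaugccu
miR-211-5p: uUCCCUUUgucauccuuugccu
miR-204-3p: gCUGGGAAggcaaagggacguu
miR-211-3p: gGCAAGGAcagcaaaggggg
miR-204-5p and miR-211-5p had the same seed and were identical at 21 of 22 bases. The substitution between them was A17U, with miR-204-5p as the reference and positions counted from its 5′ end. No other miRNA of the count table that had a RefSeq sequence shared a seed with any of the 7 members. Both arms of miR-448 had different seeds, so reads of each arm stood for a different set of possible targets.

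In GRCr8 the Htr2c hairpins lay on the plus strand of chromosome X in the order Mir764, Mir1912, Mir1298 and Mir448. Mir448 was at chrX:115641955-115642066 and Mir1298 at chrX:115556947-115557085, 84.9 kb apart. Mir204, inside Trpm3, was at chr1:229743461-229743570, and Mir211, inside Trpm1, was at chr1:127189328-127189433, both on the plus strand. The Mir448 hairpin carries both arms of miR-448, and capitals mark the 5p arm and then the 3p arm.
Mir448: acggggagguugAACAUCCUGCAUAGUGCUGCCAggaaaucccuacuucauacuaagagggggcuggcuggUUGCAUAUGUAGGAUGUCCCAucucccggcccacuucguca

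The deposited values were read counts per mature miRNA, with totals from 13464349 to 23770677 per library. Levels are given as CPM, the count per 1000000 counts of the library, scaled by edgeR's TMM factors, which ranged from 0.970 to 1.06. The 7 members took between 0.385% and 0.496% of each library. Of the 7 members, 6 passed edgeR's filter on low counts, and miR-211-3p had 0 counts in every library, where 3 counts would be between 0.126 and 0.223 CPM. Its sequence has 20 bases, and the study assigned known miRNAs by a length of 21 or 22 nucleotides. Of the 80 listed miRNAs with a RefSeq sequence of at most 20 bases, 39 had counts, against 395 of 467 with 21 or 22 bases and 118 of 141 with 23 or more. The part of the length rule in this 0 was not tested. Mature miRNAs have nearly the same length, so no length scaling was needed to set their levels side by side, but the capture of different sequences in a small RNA library can differ.

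The members spanned a wide range of levels. Over the 6 libraries miR-204-5p was the highest with 3075 to 4439 CPM and ranked between 38 and 45 of the 753 miRNAs. miR-1298 followed with 345 to 430 CPM, miR-204-3p with 93.6 to 159 CPM, miR-448-3p with 17.8 to 32.5 CPM, miR-211-5p with 6.42 to 11.5 CPM and miR-448-5p with 1.84 to 3.68 CPM. No neighbours in this order overlapped in their ranges over the 6 libraries. The mean of miR-204-5p was 9.88-fold that of miR-1298, and the mean of miR-448-3p was 2.84-fold that of miR-211-5p. In both precursors with counts for 2 arms a single arm dominated, which was the 5p arm for miR-204 and the 3p arm for miR-448.

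Between the groups, miR-448-5p was the member with the clearest difference, and it was lower in the BCP rats. In the order of rats 1 to 3, it was counted 49, 25 and 30 times in the BCP group and 51, 52 and 50 times in the sham group. Scaled to library size, this gave 2.08, 1.84 and 1.90 CPM for BCP and 3.68, 3.42 and 3.34 CPM for sham. Every BCP rat lay below every sham-operated rat. Such a lack of overlap with lower values in the BCP group was seen in 5.23% of the 459 tested miRNAs. Counting either direction, 85 of the 459 did not overlap, so the separation alone does not set miR-448-5p apart. The means were 1.94 ± 0.124 CPM and 3.48 ± 0.174 CPM (SD, n = 3 rats each), a fold of 0.557 (p = 0.1, two-sided exact permutation test, for which 3 rats against 3 can give no lower p).

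On the log2 scale miR-448-5p differed by -0.83 ± 0.189 (SE; 95% interval -1.27 to -0.40). edgeR's quasi-likelihood test gave a p of 0.00224, which became 0.052 after adjustment over all 459 miRNAs. It therefore passed the study's threshold of 0.8 on the absolute log2 fold change but not that of 0.05 on the adjusted p. Among the 234 tested miRNAs with a lower estimate in the BCP group its p was the smallest, and over all 459 it ranked 19. Whether it was called depended on the processing. Scaling by library totals (edgeR quasi-likelihood, adjusted p = 0.0431) or by RLE factors (0.0425) was enough to call it, as was a stricter filter of 10 counts per library (0.046). The exact test (0.0142) and the likelihood ratio test (0.0128) of edgeR also called it. It was not called by DESeq2 (0.0709) or limma-voom (0.0536), nor without a filter (0.0535), with miR-204-5p and miR-211-5p summed (0.0519) or with the replicate block (0.122). Leaving out each rat in turn gave adjusted p from 0.0535 to 0.227 and log2 fold changes from -0.91 to -0.80.

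The depth behind miR-448-5p was low. Counting error alone amounts to between 13.9% and 20.0% of a count of this size, whereas the 3 rats of a group differed by a coefficient of variation of 6.39% (BCP) and 5.01% (sham). The spread between the rats was thus smaller than counting error alone would give on average. Pooled over rats, 104 counts in the BCP group and 153 in the sham-operated group gave a fold of 0.565 with a 95% exact Poisson interval of 0.436 to 0.730, which covers counting error only. The reads carry no molecular identifiers and so need not stand for separate molecules.

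miR-448-3p, the more abundant arm of the same hairpin, overlapped between the groups. BCP rats 1 to 3 gave 460, 299 and 343 reads of it, and sham rats 1 to 3 gave 385, 270 and 486. This was 19.5, 22.02 and 21.7 CPM for BCP and 27.8, 17.8 and 32.5 CPM for sham. Sham-operated rat 2 lay below every BCP rat, and the other sham-operated rats lay above all of them. The log2 fold change was -0.30 ± 0.214 (SE; 95% interval -0.80 to 0.19; adjusted p = 0.611, edgeR quasi-likelihood).

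miR-1298 had the highest level among the listed miRNAs of the Htr2c locus, which included no miR-1264 or miR-1911. It took between 91.7% and 94.8% of the counts of the 3 Htr2c-hosted members. BCP rats 1 to 3 gave 8422, 4939 and 5811 reads of it, and sham rats 1 to 3 gave 4787, 5849 and 6436. The BCP levels of 357, 364 and 368 CPM lay within the range of the sham levels, which were 345, 385 and 430 CPM. The log2 fold change was -0.09 ± 0.116 (SE; 95% interval -0.36 to 0.18; adjusted p = 0.785, edgeR quasi-likelihood). With this interval the BCP mean lay between 0.779-fold and 1.13-fold of the sham-operated mean.

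Other miRNAs of the Htr2c locus were taken from a list of miR-448, miR-764, miR-1264, miR-1298, miR-1911 and miR-1912 in any arm, of which 7 were listed and 5 passed the filter. Of these 5, 0 were called by edgeR's quasi-likelihood test (3.49% of all 459 tested miRNAs were), 1 (miR-448-5p) had an unadjusted p below 0.05 (13.1% of all tested miRNAs had), and the median log2 fold change was -0.29 against -0.0034 over all tested miRNAs. For miR-764-5p the reads numbered 278, 139 and 140 (BCP rats 1 to 3) and 183, 238 and 133 (sham rats 1 to 3), with overlapping levels and a log2 fold change of -0.29 ± 0.222 (SE; adjusted p = 0.651, edgeR quasi-likelihood). For miR-764-3p they numbered 43, 24 and 29 (BCP) and 11, 28 and 32 (sham), with a log2 fold change of 0.18 ± 0.341 (SE; adjusted p = 0.877, edgeR quasi-likelihood). Sham-operated rat 1 was the lowest of all libraries for miR-764-3p. Both arms of miR-1912, whose hairpin lies between Mir764 and Mir1298, were listed at 0 in every library, with 21 bases in miR-1912-5p and 19 in miR-1912-3p.

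**Figure D1:**
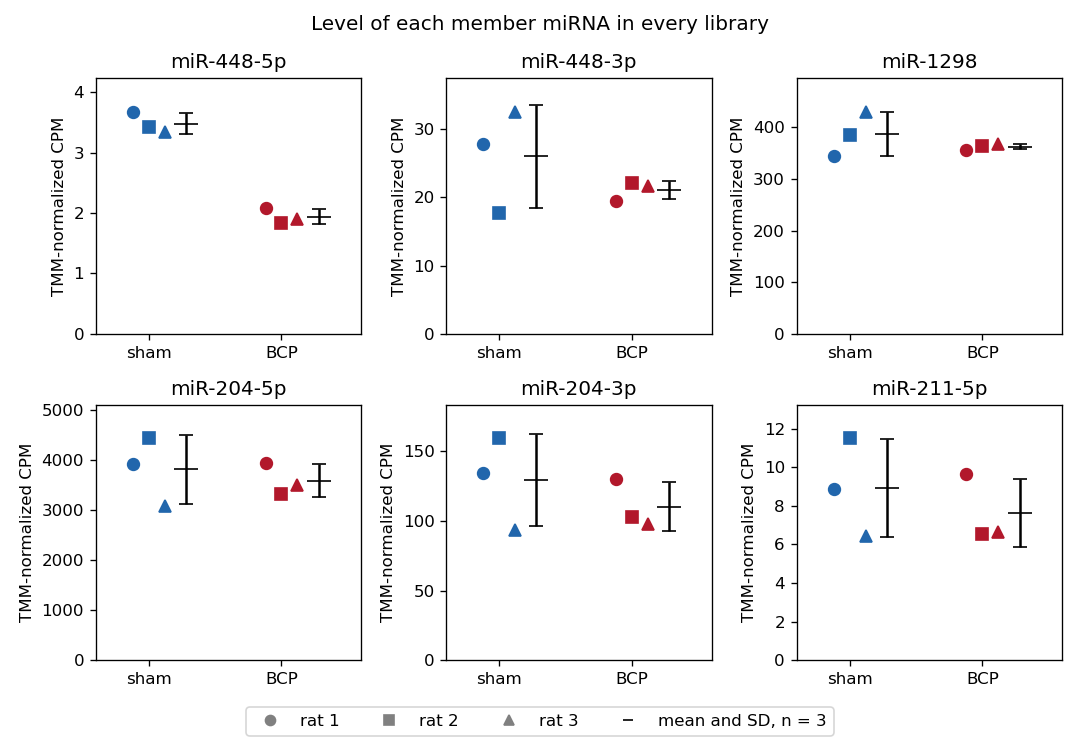
TMM-normalized CPM (vertical axis, from 0) of the 6 members with counts, by group, with 1 symbol per rat and the mean ± SD beside it (n = 3 rats). The groups were apart for miR-448-5p, at 1.84 to 2.08 CPM in the BCP rats and 3.34 to 3.68 CPM in the sham-operated rats, and overlapped for the other 5 members.

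The Trpm-hosted members overlapped between the groups. miR-204-5p, the abundant arm of the Trpm3 hairpin, was read 93128, 45101 and 55352 times in BCP rats 1 to 3 and 54508, 67502 and 45982 times in sham rats 1 to 3. Its levels were 3950, 3322 and 3501 CPM for BCP and 3930, 4439 and 3075 CPM for sham. The sham-operated rats held both the highest and the lowest of the 6 values. The log2 fold change was -0.09 ± 0.144 (SE; 95% interval -0.42 to 0.25; adjusted p = 0.827, edgeR quasi-likelihood), and without sham-operated rat 2 the estimate had the opposite sign, at 0.032.

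miR-204-3p, the minor arm, reached 130, 103 and 97.7 CPM in BCP rats 1 to 3 and 135, 159 and 93.6 CPM in sham rats 1 to 3. Again sham-operated rat 2 was the highest and sham-operated rat 3 the lowest. The log2 fold change was -0.23 ± 0.208 (SE; 95% interval -0.71 to 0.25; adjusted p = 0.700, edgeR quasi-likelihood).

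miR-211-5p, the Trpm1-hosted paralog, reached 9.67, 6.55 and 6.64 CPM in BCP rats 1 to 3 and 8.87, 11.5 and 6.42 CPM in sham rats 1 to 3. Its log2 fold change was -0.22 ± 0.252 (SE; 95% interval -0.80 to 0.36; adjusted p = 0.765, edgeR quasi-likelihood), and without sham-operated rat 2 it was 0.0062. Its counts, from 89 to 228, made up between 0.189% and 0.259% of the summed counts of miR-204-5p and miR-211-5p. The paper does not say to which miRNA a read matching several was given, and these 2 miRNAs differ at position 17 alone, so the level of miR-211-5p is uncertain to that extent.

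Over the 6 tested members, 0 were called by edgeR's quasi-likelihood test, against 3.49% of the 459 tested miRNAs, all of those higher in the BCP group. An unadjusted p below 0.05 was reached by 1 member, miR-448-5p, and by 13.1% of all tested miRNAs, or 2.4% counting only those lower in the BCP rats. DESeq2 and limma-voom called 0 members, among 19 and 16 of all tested miRNAs. The exact and likelihood ratio tests of edgeR called 1 member, among 24 and 25 of all tested miRNAs, of which 2 and 3 were lower in the BCP rats. All 6 estimates were below 0, with a median log2 fold change of -0.22, whereas 234 of the 459 tested miRNAs had an estimate below 0. The 6 are not independent, since miR-204-5p and miR-211-5p may share reads and arms come from the same hairpin.

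**Figure D2:**
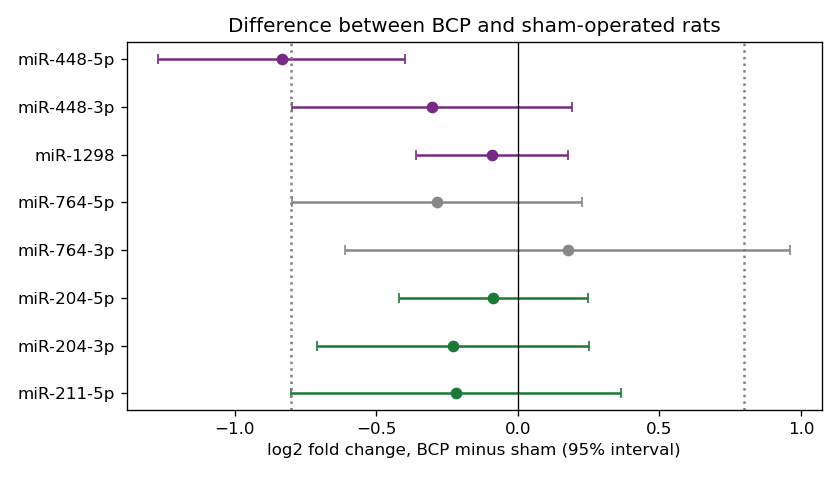
Log2 fold change (horizontal axis, BCP minus sham) of the 6 members with counts and of both miR-764 arms, with 95% intervals from edgeR's quasi-likelihood fit (n = 3 rats per group). Dotted lines mark the study's threshold of 0.8 in both directions, and the interval of miR-448-5p, from -1.27 to -0.40, is the one that does not include 0.

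**Figure D3:**
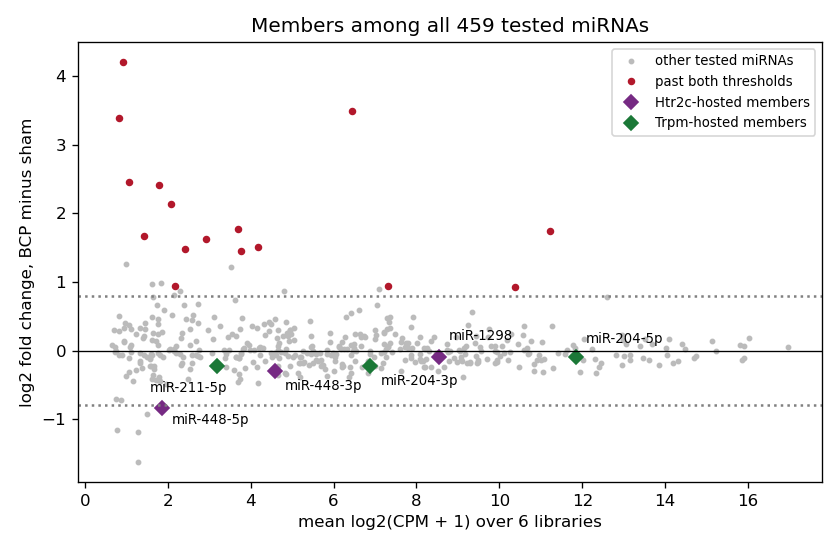
Log2 fold change (vertical axis) against the mean log2(CPM + 1) over the 6 libraries (horizontal axis) for all 459 tested miRNAs, 1 point each. The 16 miRNAs past both thresholds (red) are all higher in the BCP rats, and miR-448-5p, at -0.83, lies beyond the lower dotted line at the low end of the levels.

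Ratios of 2 members within a library do not depend on the scaling between libraries, and they were taken after adding 1 to each count. The share of the 5p arm among all miR-448 counts was 9.63%, 7.72% and 8.04% for BCP rats 1 to 3. For sham rats 1 to 3 it was 11.7%, 16.1% and 9.33%. Sham-operated rat 3 lay below BCP rat 1, so the groups overlapped. The log2 ratio of miR-448-5p to miR-448-3p was lower by 0.57 in the BCP group, with means of -3.40 ± 0.173 and -2.83 ± 0.453 (SD, n = 3 rats each; two-sided exact permutation test, p = 0.2, adjusted p = 0.333 over 5 ratios). With 3 rats against 3 this test cannot give a p below 0.1, so it could not have passed at 0.05. The difference was -0.33 without sham-operated rat 2 and -0.78 without sham-operated rat 3.

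Against miR-1298 and miR-204-5p the ratio of miR-448-5p did not overlap between the groups. With 1 added to each, the count of miR-1298 was 168, 190 and 187 times that of miR-448-5p for BCP rats 1 to 3, against 92.1, 110 and 126 times for sham rats 1 to 3. The log2 ratio of miR-448-5p to miR-1298 differed by -0.74 (BCP minus sham; two-sided exact permutation test, p = 0.1, adjusted p = 0.25 over 5 ratios). The log2 ratio of miR-448-5p to miR-204-5p differed by -0.75 (exact permutation test, p = 0.1, adjusted p = 0.25). Neither test could pass at 0.05, for the same reason. miR-1298 and miR-204-5p each had a log2 fold change of -0.09, so both ratios mostly repeat the difference of miR-448-5p itself. They are not separate support for it.

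Within the Trpm-hosted members the ratios overlapped between the groups. miR-204-5p was 30.4, 32.4 and 35.8 times miR-204-3p for BCP, against 29.2, 27.9 and 32.8 times for sham (exact permutation test, p = 0.3, adjusted p = 0.375). miR-204-5p was 407, 501 and 522 times miR-211-5p for BCP, against 440, 384 and 474 times for sham (exact permutation test, p = 0.4, adjusted p = 0.4). As sums over each host, the Trpm-hosted counts were 10.8, 8.85 and 9.22 times the Htr2c-hosted counts for BCP, against 10.8, 11.4 and 6.81 times for sham, so the BCP values lay within the range of the sham-operated values.

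**Figure D4:**
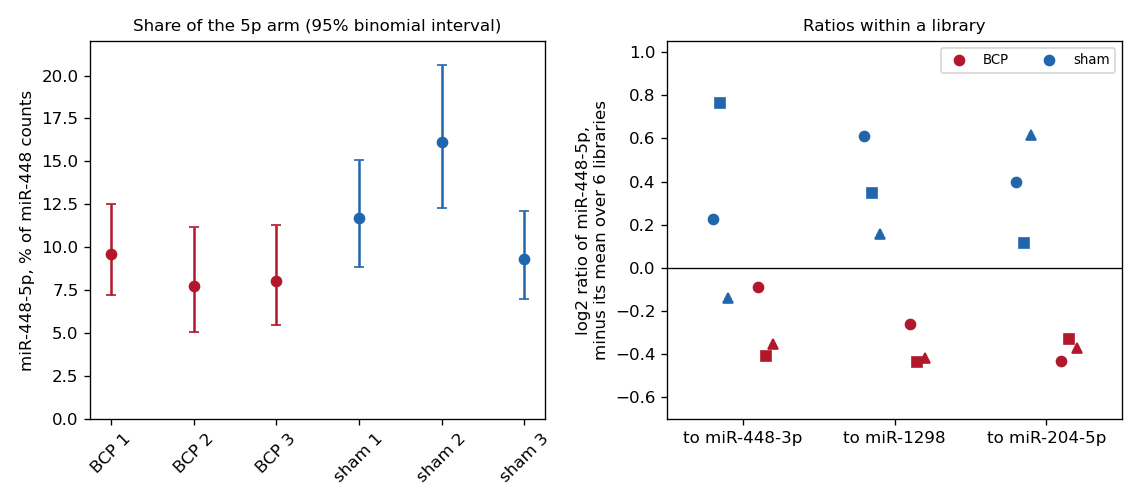
Left, miR-448-5p as a percentage of all miR-448 counts in each library, with the 95% exact binomial interval, which covers counting error only. Right, the log2 ratio of miR-448-5p to 3 other members in each library (1 symbol per rat), minus its mean over the 6 libraries; the groups overlap against miR-448-3p and are apart against miR-1298 and miR-204-5p.

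The Htr2c-hosted members varied differently from each other over the 6 libraries. Given as a description over 6 libraries that include both groups, Pearson's r of log2(CPM + 1) was 0.42 between the arms of miR-448, 0.32 between miR-448-5p and miR-1298, and 0.41 between miR-448-3p and miR-1298. By contrast, r was 0.96 between the arms of miR-204, 0.96 between miR-204-5p and miR-211-5p, and 0.98 between miR-204-3p and miR-211-5p. Reads of miR-204-5p may have been counted as miR-211-5p, and the part of this in the r of miR-211-5p was not tested. In miR-204-5p, miR-204-3p and miR-211-5p sham-operated rat 2 was the highest library and sham-operated rat 3 the lowest. miR-448-3p ran the other way in the sham-operated group, with its lowest level in rat 2 and its highest in rat 3, and its r with miR-204-5p was -0.68. miR-764-5p, although hosted by Htr2c, varied with the Trpm-hosted members, with an r of 0.98 with miR-204-3p and 0.92 with miR-204-5p, against -0.36 with miR-1298. miR-764-3p was closer to miR-1298, with an r of 0.67 and a Spearman's rho of 0.94.

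The shared pattern of miR-204 and miR-211 was also that of many other miRNAs. Of the 458 other tested miRNAs, 40 had an r above 0.9 with miR-204-5p, 68 with miR-204-3p and 61 with miR-211-5p. For miR-448-5p there were 6, for miR-448-3p 2 and for miR-1298 0. The closest to miR-204-5p were miR-505-5p (r = 0.98), let-7e-5p (0.98) and miR-146b-5p (0.97). The closest to miR-204-3p were let-7d-3p (0.99), miR-328a-3p (0.99) and miR-181a-5p (0.99), and those closest to miR-211-5p were miR-485-5p, let-7e-5p and miR-128-2-5p (0.99 each). For miR-448-5p they were miR-330-5p (0.94), miR-30c-1-3p (0.94) and miR-181d-5p (0.93). For miR-448-3p they were miR-377-3p (0.95), miR-133b-3p (0.94) and miR-873-5p (0.89). For miR-1298 they were miR-34c-5p (0.83), miR-300-3p (0.78) and miR-541-3p (0.78). The smallest adjusted p between the groups among these 17 neighbours was 0.411 (miR-330-5p, edgeR quasi-likelihood).

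**Figure D5:**
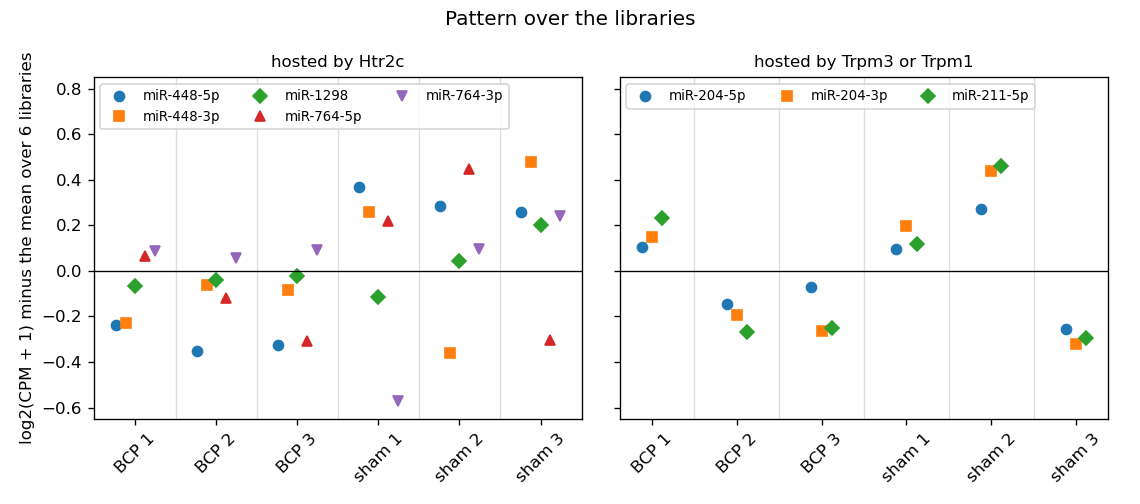
Log2(CPM + 1) in each library minus its mean over the 6 libraries (vertical axis) for the Htr2c-hosted miRNAs (left) and the Trpm-hosted miRNAs (right). The 3 Trpm-hosted miRNAs move together over the libraries, with sham-operated rat 2 the highest, whereas the 5 Htr2c-hosted ones do not all follow a single pattern. miR-204-5p and miR-211-5p may share reads.

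Marker miRNAs of other cells were summed in each library, because the members are known from the choroid plexus, which lies in the brain ventricles and not in the lumbar cord. Their part in the results was not tested. Markers of multiciliated ependymal and choroid epithelial cells (miR-34b, miR-34c, miR-449a and miR-449c) had 8 listed miRNAs, 2 of them at 0 everywhere, with 416 to 455 CPM in the BCP group and 432 to 476 CPM in the sham-operated group. Of its 5 tested miRNAs 0 were called, against 3.49% of all 459 tested miRNAs. miR-34c-5p, with a mean of 351 CPM in the BCP group and 359 CPM in the sham-operated group, made up most of the sum, while miR-449a-5p, at 5.45 and 2.95 CPM, had a log2 fold change of 0.88 (adjusted p = 0.286, edgeR quasi-likelihood). The other 4 tested miRNAs of this list had estimates below 0, from -0.24 for miR-34b-3p to -0.033 for miR-34c-5p, with -0.10 for miR-34c-3p. The epithelial miR-200 family and miR-141 were low, with 9 listed miRNAs of which 2 were at 0 everywhere, and their sum was 13.3 to 15.8 CPM in the BCP group and 6.35 to 8.02 CPM in the sham-operated group, the opposite of miR-448-5p. Against the same share of 3.49%, 1 of its 3 tested miRNAs was called. This was miR-200c-3p, with a log2 fold change of 1.63, whereas miR-200b-3p was at -0.23 (adjusted p = 0.777, edgeR quasi-likelihood) and miR-200a-3p at 0.50 (adjusted p = 0.546), so the sum followed miR-200c-3p. Oligodendrocyte miRNAs (miR-219a and miR-338) summed to between 17712 and 20969 CPM in the BCP group and between 19365 and 23844 CPM in the sham-operated group. Sham-operated rat 2 was the highest, as for miR-204, but BCP rat 3 was the lowest, unlike for miR-204. Mural and meningeal miRNAs (8 listed, 1 at 0 everywhere) summed to between 8039 and 10361 CPM in the BCP group and between 7399 and 9446 CPM in the sham-operated group, with sham-operated rat 2 the lowest. Neuronal miRNAs summed to between 124947 and 140680 CPM and sensory ganglion miRNAs to between 1894 and 2295 CPM over all libraries, both with overlapping groups. The erythroid miRNAs miR-451 and miR-144 were listed at 0 in every library. Of the 753 listed miRNAs, 603 had a count in some library. Whether a 0 means absence from the tissue or loss in the read assignment was not tested, so these 0 values do not show that blood cells were lacking. In whole tissue, fewer cells of a type and less of the miRNA per cell cannot be told apart.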

How the data were processed

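A small RNA library was made from the lumbar cord of each of 3 BCP and 3 sham rats on day 14. Reads were cleaned by the authors with FASTX Toolkit 0.0.13, limited to 18 to 40 nucleotides and mapped to Rnor_6.0. Known miRNAs were assigned by miRBase 22 and, according to the paper, a length of 21 or 22 nucleotides. Bowtie2 2.2.3 is named in the submitters' processing notes. The deposited table holds raw counts for 753 mature miRNAs, 1 column per rat, which the authors did not normalize. Library totals ranged from 13464349 to 23770677, and 603 miRNAs had at least 1 count.

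The whole table was analysed in R 4.3.3 with edgeR 4.0.16. filterByExpr with a minimum count of 10 kept 459 miRNAs, normalization was TMM, and the groups were compared by quasi-likelihood, with p-values adjusted by the Benjamini-Hochberg method over all 459. A miRNA was called at an adjusted p below 0.05 and an absolute log2 fold change above 0.8, the study's thresholds. Standard errors came from the log2 fold change and the F statistic. Ratios used log2 of counts with 1 added and two-sided exact permutation tests. The count test was tested on simulated data. No library was a copy of another (chi-square per degree of freedom between libraries of a group, 63.4 to 663).

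Alternatives were other filters, total counts, RLE normalization, DESeq2 1.42.0, the exact and likelihood ratio tests of edgeR, limma-voom (limma 3.58.1), the replicate block, summing miR-204-5p and miR-211-5p, and leaving out each rat. The members and lists were chosen with earlier results of these data known. Named miRNAs are the members, the Htr2c-locus list, miRNAs sharing a seed with a member, and the 3 miRNAs with the highest r with each member. Marker lists are illustrated by up to 3 miRNAs with the highest mean count, and miR-449a-5p was named after its values were seen. Unannotated miRNAs and the study's other experiments were not analysed here. Sequences and hairpin positions are RefSeq's for GRCr8.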

Additional observations from a re-analysis of the deposited data

How the results depend on the processing

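miR-448-5p kept its direction under every setting run. Its log2 fold change was -0.83 with a filter of 10 counts per library, -0.85 when scaled by library totals, -0.86 with RLE normalization, and -0.83 with edgeR's exact and likelihood ratio tests. Each of these called it, so that the number of members and of Htr2c-locus miRNAs called was 1 instead of 0. Without a filter (adjusted p = 0.0535), with DESeq2 (0.0709), with limma-voom (0.0536), with miR-204-5p and miR-211-5p summed (0.0519) and with the replicate block (0.122) it was not called. Leaving out each rat called 0 members and 0 Htr2c-locus miRNAs, with log2 fold changes of miR-448-5p from -0.91 to -0.80. What caused these differences was not tested.

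The number of all known miRNAs called, 16, ranged from 8 to 20 when a rat was left out, with 8 without BCP rat 2, 10 without BCP rat 3 and 9 without sham-operated rat 1, and was 25 with the likelihood ratio test. Of the Trpm-hosted members, miR-204-5p ranged from -0.25 to 0.032 and miR-211-5p from -0.45 to 0.0062 when a rat was left out, and both changed sign without sham-operated rat 2 alone. miR-204-3p (-0.45 to -0.053), miR-448-3p (-0.52 to -0.15) and miR-1298 (-0.20 to -0.039) kept their sign. With all rats kept, the alternatives preserved sign and call in 54 cases over the members and made miR-448-5p pass in 5. The 5 ratios kept their sign under all settings. When a rat was left out, the log2 ratio of miR-448-5p differed by -0.78 to -0.33 against miR-448-3p, by -0.85 to -0.62 against miR-1298 and by -0.88 to -0.63 against miR-204-5p, and that of miR-204-5p by 0.069 to 0.20 against miR-204-3p and by 0.054 to 0.25 against miR-211-5p. The sign was also kept with the replicate block, where the smallest p from 3 pairs is 0.25.

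The labels give no link other than the number between rats with the same number. The correlations of their deviations from the group means were 0.109, -0.452 and 0.711 for numbers 1, 2 and 3. Rats 1 and 2 did not correlate best with their own number, whereas rats 3 did in both directions. With the replicate block the log2 fold change of miR-448-5p was -0.84, and the number of known miRNAs called was 18. Depth limits miR-448-5p and miR-764-3p, with 11 to 52 counts per library, and miR-211-3p and both arms of miR-1912 had 0.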
